A study of Mus musculus with 6 samples.

Results

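The clustered protocadherin genes were represented by 52 of the 192196 genomic regions in the count table of 5-hydroxymethylcytosine (5hmC), the oxidised form of methylated cytosine that Tet enzymes make. These regions were taken by position, as those with a midpoint on chromosome 18 from 37.05 to 38.05 Mb in build mm9. The rule uses no count, but it was set with earlier results of these data known. Of them, 17 lay in the alpha cluster (about 37.09 to 37.35 Mb), 1 in the beta cluster (about 37.4 to 37.67 Mb), 28 in the gamma cluster (about 37.8 to 38.01 Mb) and 6 between or beside the clusters. The 4 libraries came from Tet1 constitutive knockout (KO) mice, which lack Tet1 in every cell and not only in astrocytes, and from wild-type (WT) mice, with samples 1 and 2 of each genotype (KO1, KO2, WT1 and WT2). The labels give the material as brain, while the study's text describes astrocytes cultured from the cortex and hippocampus of neonatal pups, and a count of DNA reads cannot tell these apart. Nothing states whether sample 1 and sample 2 of a genotype came from separate animals or cultures, so that p-values measure the spread between these samples, which may be technical. Since each library is a bulk extract, 5hmC in fewer cells and less 5hmC per cell cannot be told apart.

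Clustered protocadherins are cell-surface adhesion proteins that bind copies of themselves on neighbouring cells, and each neuron uses only some of them through a choice among many promoters. In the alpha and gamma clusters, each variable first exon has its own promoter and is joined to a set of constant exons shared by the whole cluster, whereas each beta gene is a single large exon with no constant part. Methylation of the promoters is known to accompany their silencing, and gamma protocadherins are made by astrocytes as well as by neurons. RefSeq, in the later build GRCm38, lists 14 genes in the alpha cluster (Pcdha1 first and Pcdhac2 last), 22 in the beta cluster (Pcdhb1 to Pcdhb22) and 22 in the gamma cluster (Pcdhga1 to Pcdhgc5). In that annotation the ends of the 14 alpha genes lie within 1240 bp and those of the 22 gamma genes within 1384 bp, as genes with a common last part do, while the ends of the beta genes spread over 253965 bp. No annotation of mm9 was used and positions were not converted, so no region is assigned here to a gene, exon or promoter.

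Total counts ran from 16819455 to 19288900 in the 4 libraries, of which the protocadherin window held 4040 in KO1, 2760 in KO2, 3357 in WT1 and 3036 in WT2. Levels are given as CPM, that is, counts per 1000000 of a library size scaled by TMM (the trimmed mean of M-values). On this scale 3 counts correspond to between 0.140 and 0.194 CPM. Such scaling sets each region against the rest of its own library, so an even loss over the genome would not show. By dot blot, the paper reports a lower global level of hydroxymethylcytosine in KO astrocytes. All comparisons of KO with WT levels given here are therefore relative, and absolute amounts were not measured. The 25 regions of highest mean count, none of them a protocadherin region, took 11.5% of the counts in KO1, 36.5% in KO2, 17.8% in WT1 and 34.1% in WT2. The depth left for the other regions was therefore unequal, with a median count per region of 55 in KO1, 39 in KO2, 48 in WT1 and 44 in WT2. Over all 176957 tested regions, the WT libraries had a rank correlation of 0.857 with each other, and the KO libraries one of 0.693. Between a KO and a WT library the correlation ran from 0.750 to 0.837, above that of the KO pair each time. The KO libraries therefore stood further apart than the WT libraries, and further apart than any KO library from any WT library.

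To describe where 5hmC was found along the window, the regions were set against the bounds of the clusters. Each cluster was divided along its length into 4 equal parts. In the alpha cluster these parts of 65 kb contained 0, 0, 2 and 15 regions. The last part held 97.6% of the alpha counts in KO1, 98.9% in KO2, 97.3% in WT1 and 96.9% in WT2. The gamma cluster was filled in the same order, with 3, 3, 4 and 18 regions in its parts of 52.5 kb. Its last part held 89.4% of the gamma counts in KO1, 90.5% in KO2, 86.8% in WT1 and 87.8% in WT2. In both clusters the 5hmC regions thus crowded toward the higher coordinates, the side on which GRCm38 places the last gene of each cluster, in all 4 libraries.

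Before each of these crowded ends the window held few regions and long gaps. No region of the table lay between positions 36925173 and 37250103, a gap of 324.9 kb. It begins before the window and takes in the first 2 parts of the alpha cluster. Of the 189476 gaps between neighbouring autosomal regions, 0.125% were longer. A gap of 261.6 kb, from 37547571 to 37809196, covered the end of the beta cluster, the stretch between beta and gamma and the start of gamma, and 0.241% of autosomal gaps were longer. A gap of 151.6 kb, from 37395298 to 37546879, began just before the beta bound and ended at the only beta region, in the third part of that cluster. Of autosomal gaps, 0.789% were longer than this one. The median gap on autosomes was 4050 bp. These percentages count gaps and not the length they span, and gaps over unsequenced stretches were not left out. They therefore do not give how much of the autosomes is as empty. The 270.0 kb of the beta cluster contained 1 region, and 12.5% of autosomal windows of 0.2 Mb contained 0 or 1 region. Those windows are shorter than the cluster, and unsequenced stretches were not left out. Their share therefore does not give how rare such emptiness is. In the gamma cluster 8.90% of the length was covered by regions, against 3.24% in alpha, 0.257% in beta and 4.42% over the autosomes.

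**Figure D1:**
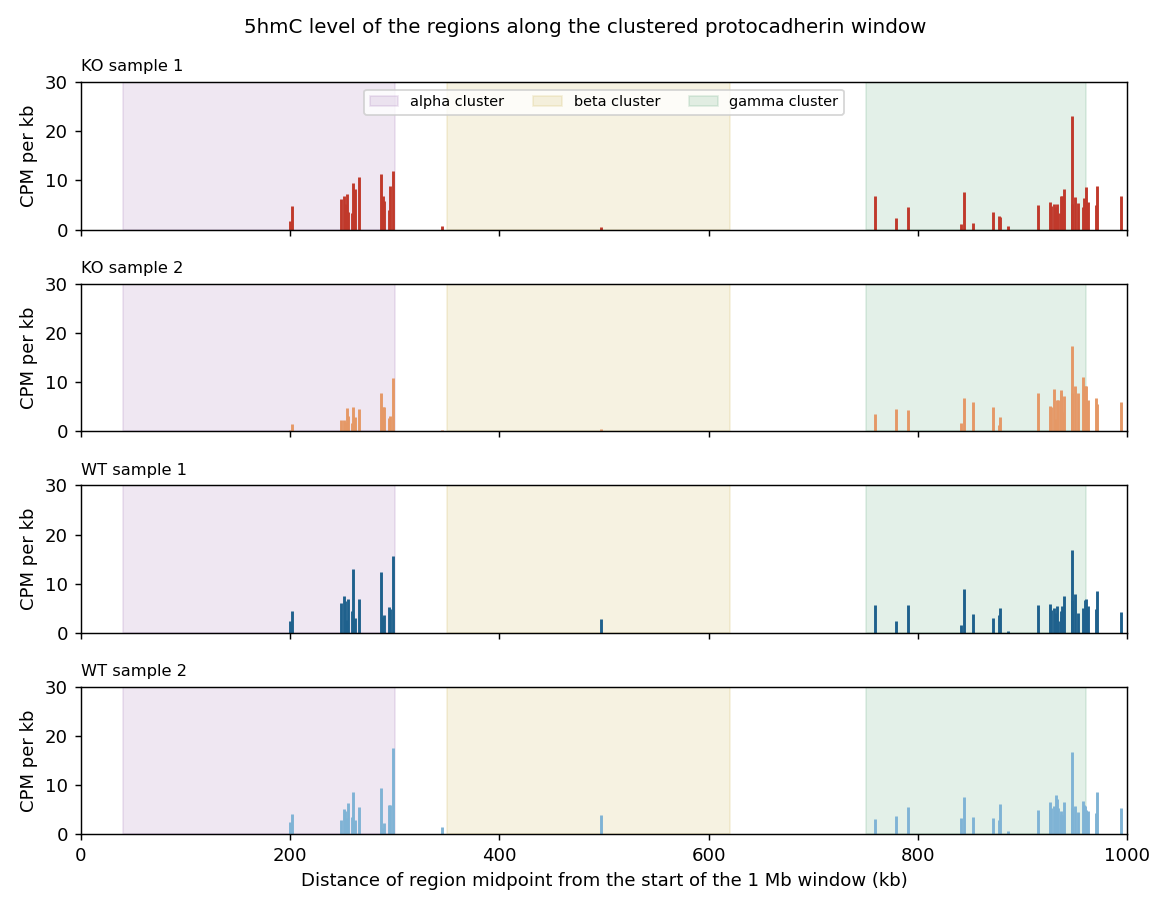
Level of 5hmC (CPM per kb of region width) of the 52 regions, drawn as 1 bar each at the distance of the region's midpoint from the start of the window in kb, with 1 panel per library and the 3 clusters shaded. Bars gather at the far ends of the alpha and gamma clusters in all 4 libraries, and the beta cluster holds a single bar, taller in both WT libraries than in both KO libraries.

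Levels were then set per kilobase of covered sequence. The alpha cluster had 7.57 CPM per kb in KO1, 4.35 in KO2, 7.15 in WT1 and 6.23 in WT2. In the gamma cluster, the corresponding values were 5.75, 6.76, 5.43 and 5.70 CPM per kb. Autosomes without the 25 top regions gave 6.70, 7.25, 6.85 and 6.86 CPM per kb, in the same order, above the gamma value of the same library in each of the 4. In alpha, KO1 and WT1 lay above the autosomal value of their library, and KO2 and WT2 below it. The single beta region stood lower, at 0.540, 0.468, 2.77 and 3.85 CPM per kb. Regions of the gamma cluster were wider, with a median of 532.5 bp and 21.4% over 1 kb, whereas the alpha median was 427 bp and the autosomal median 437 bp, with 10.8% of autosomal regions over 1 kb.

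Next, the summed 5hmC of each cluster was compared between genotypes. The alpha cluster summed to 63.7 CPM in KO1, 36.6 CPM in KO2, 60.2 CPM in WT1 and 52.4 CPM in WT2. KO2 was the lowest and KO1 the highest, so the genotypes overlapped, and the KO libraries differed 1.74-fold from each other. The KO mean was 50.2 ± 19.1 CPM and the WT mean 56.3 ± 5.50 CPM (SD, n = 2 each). Counts summed over the clusters were tested together with 0.2 Mb windows of the rest of the genome by edgeR's quasi-likelihood test, in which 0% of 11145 windows passed at a Benjamini-Hochberg adjusted p under 0.05 and 0.897% had a raw p of less than 0.05. For alpha, log2 of KO over WT came to -0.16 ± 0.27 (SE, adjusted p = 1.00, edgeR), within the spread between replicates. Its direction rested on KO2, and without that library it was 0.18 (adjusted p = 0.638, edgeR). Without KO1 it was -0.62 and passed (adjusted p = 0.00224, edgeR), in a fit that took its spread from the WT pair alone and called 24.2% of all windows.

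Summed over its 28 regions, the gamma cluster had 107 CPM in KO1, 126 CPM in KO2, 101 CPM in WT1 and 106 CPM in WT2. With TMM scaling, though not by total counts, both KO libraries lay above both WT libraries. KO1 exceeded WT2 by little, and by less than it did in the region from 37996310 to 37996999 alone (15.99 against 11.5 CPM). Region by region, KO1 was above the WT mean in 9 and below it in 19 of the 28. KO2 was above it in 15 and below it in 13. The sums thus do not show a rise across the cluster in both KO libraries. The KO mean was 117 ± 13.3 CPM and the WT mean 104 ± 3.52 CPM (SD, n = 2 each). The log2 fold change came to 0.17 ± 0.15 (SE, adjusted p = 1.00, edgeR), a difference that did not exceed the spread between replicates. Its size rested on KO2, and without that library it was 0.048 (adjusted p = 0.897, edgeR). Without KO1 it was 0.29 and passed (adjusted p = 0.0409, edgeR), in the same fit that called 24.2% of windows.

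The beta cluster showed the widest separation of the 3. Its only region, on chromosome 18 from 37546879 to 37547571, was covered by 8 and 5 reads in the KO libraries and by 36 and 46 in the WT libraries. These were 0.374 and 0.324 CPM in KO1 and KO2, against 1.92 and 2.67 CPM in WT1 and WT2. Both KO libraries were close to each other and far below both WT libraries. The KO mean was 0.349 ± 0.0353 CPM and the WT mean 2.29 ± 0.530 CPM (SD, n = 2 each), 6.57-fold higher in WT. As a cluster sum it had a log2 fold change of -2.68 ± 0.68 (SE), an unadjusted p of 0.00608 and an adjusted p of 1.00 by edgeR, so it did not pass over all windows. Without KO1 it was -2.79 and passed (adjusted p = 0.0171, edgeR), as did 24.2% of windows in that fit. The region passed the filter on low counts through its WT libraries alone, as neither KO library reached the minimum. How reads that match several places were treated is not stated, and beta genes resemble each other in sequence. Whether this region lies in a beta gene and shares reads with other copies was not tested.

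**Figure D2:**
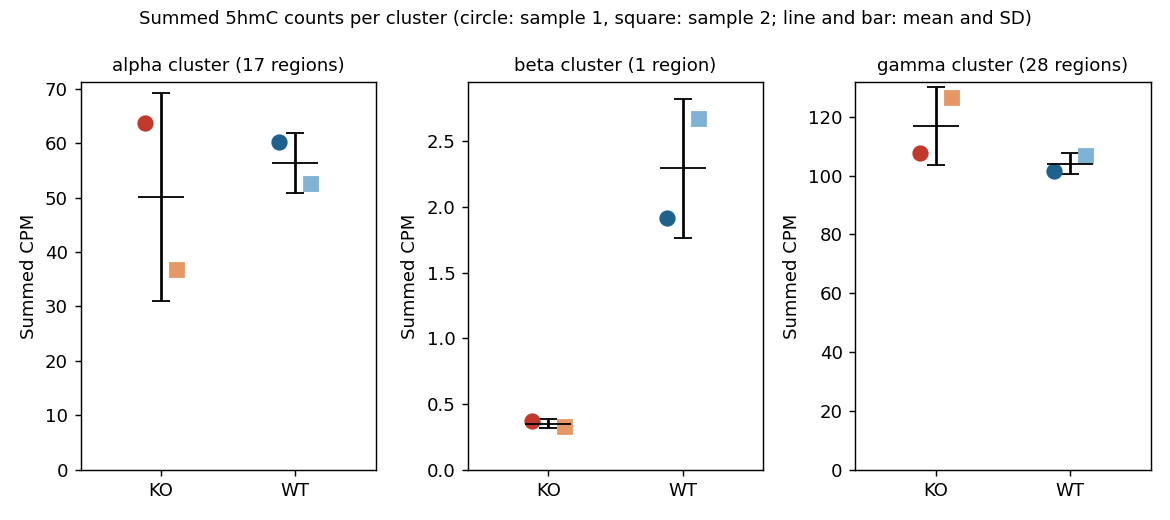
Summed 5hmC counts (CPM) of the alpha, beta and gamma clusters in KO and WT, with circles for sample 1, squares for sample 2, and a line with a bar for the mean and SD of the 2 libraries. The 2 KO points of alpha (63.7 and 36.6 CPM) lie on either side of the WT points, and the beta KO points lie far below the beta WT points. The gamma KO points lie above the gamma WT points, KO1 only just above WT2.

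To leave the scaling of libraries aside, cluster sums were also divided by each other within a library. The ratio of alpha to gamma counts was 0.592 in KO1, 0.290 in KO2, 0.593 in WT1 and 0.492 in WT2. KO1 and WT1 were nearly equal, and KO2 was the one that stood apart. The mean log2 ratio was -1.27 ± 0.73 in KO and -0.89 ± 0.19 in WT (SD, n = 2 each), a difference of -0.38 (exact two-sided permutation test, p = 0.667). The ratio of beta to gamma was 0.00348 and 0.00257 in KO1 and KO2, and 0.0189 and 0.0251 in WT1 and WT2. On the log2 scale this difference was -2.86, and for alpha over beta it was 2.48, with an exact two-sided permutation p of 0.333 for each (3 ratios were compared). With 2 libraries against 2, 0.333 is the smallest p that this test can give.

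Single regions were then tested between KO and WT. Of the 52 regions, 49 passed the filter on low counts, 8 of them with both libraries of only 1 genotype over the minimum. None of the 49 passed at adjusted p under 0.05 by edgeR's quasi-likelihood test, as none did over the whole table (0% of 176957 regions), and none passed with DESeq2 (0.00339% of all regions) or with a replicate block for the sample number (0.0446%). Without KO1, 2 passed, the beta region and the gamma region from 38002187 to 38003710, in a fit that called 7.51% of all tested regions. Before adjustment, p was under 0.05 for 2 protocadherin regions by edgeR and 1 by DESeq2, against 2.81% and 1.97% of all tested regions. The log2 fold change was above 0 in 27 and below 0 in 22 of the 49, with a median of 0.13, beside a median of 0.02 over all tested regions, of which 51.9% were above 0. The genotypes did not overlap in 22 of the 49 regions, 12 higher and 10 lower in KO, while 30.9% of all tested regions did so (15.3% higher and 15.6% lower). By cluster, these were 9 of 17 regions in alpha, the 1 region of beta, 8 of 26 in gamma and 4 of the 5 tested regions beyond gamma, with no test of the shares. Among them, the beta region and those starting at 37250103, 37340032, 37927157 and 37927756 passed the filter only through the genotype where they are high. The filter thus favoured the direction of these regions, and they do not add to the comparison with all tested regions.

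**Figure D3:**
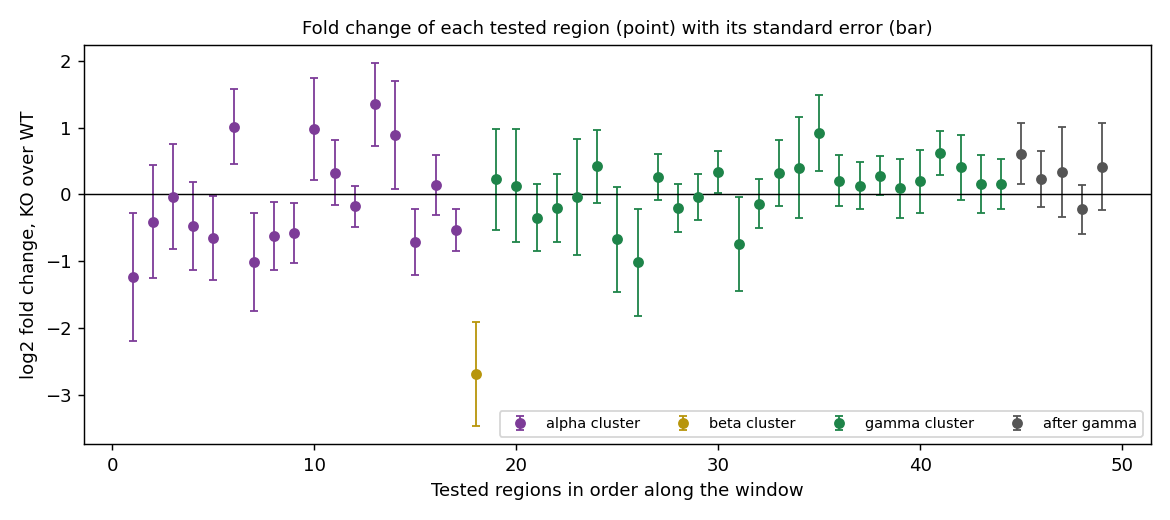
Log2 fold change of KO over WT (point) and its standard error (bar) for the 49 tested regions, in their order along the window and coloured by cluster. Alpha regions range from -1.23 to 1.35 and gamma regions from -1.02 to 0.92, and the beta region stands at -2.68, below every other region.

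Within the alpha cluster the level per kilobase was highest in its last region. This region, from 37348558 to 37349156, had 7.20 and 6.48 CPM in KO1 and KO2, and 9.38 and 10.5 CPM in WT1 and WT2. Both KO libraries were lower than both WT libraries, with a log2 fold change of -0.54 ± 0.32 (SE). Per kilobase its mean WT level was 16.6 CPM, above 98.8% of autosomal regions. The widest alpha region, from 37336140 to 37337445, had 14.9, 10.2, 16.1 and 12.4 CPM in KO1, KO2, WT1 and WT2. Here each sample 2 library was below the sample 1 library of its genotype, the genotypes overlapped, and the log2 fold change was -0.18 ± 0.31 (SE).

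The largest rise among alpha regions without overlap of the genotypes was found just beyond the widest one. From 37338549 to 37339013, the KO libraries had counts of 68 and 35 and the WT libraries of 28 and 11, or 3.18, 2.27, 1.49 and 0.638 CPM. Both KO libraries were higher than both WT libraries, with a log2 fold change of 1.35 ± 0.62 (SE), an unadjusted p of 0.0455 and an adjusted p of 1.00 by edgeR. The neighbouring region from 37340032 to 37340242, singled out after its values were seen, had 1.22 and 1.04 CPM in KO and 0.746 and 0.464 CPM in WT, and it passed the filter on low counts through the KO libraries alone, where it is high. At the other end of the cluster, the first region, from 37250103 to 37250399, held 11 and 1 counts in the KO libraries and 13 in each WT library. It gave the lowest alpha log2 fold change, -1.23 ± 0.96 (SE), with the KO libraries differing from each other by more than KO1 did from WT. It passed the filter through the WT libraries alone, and its value was -3.33 without KO1 and -0.49 without KO2.

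In KO2 most alpha regions were low. It was the lowest of the 4 libraries in 13 of the 17 alpha regions, and it was the lowest in 34.2% of all tested regions. The median log2 ratio to the WT mean over the alpha regions was -0.83 in KO2 and 0.09 in KO1. Across the 28 gamma regions, 2 of them not tested, KO2 was the highest of the 4 libraries in 13 and the lowest in 7. It was the highest in 34.6% of all tested regions. The gamma median log2 ratios were 0.03 in KO2 and -0.13 in KO1. Over all tested regions the medians were -0.03 and -0.02. Against the WT mean, KO2 thus had a median well below 0 in alpha and one near 0 in gamma, a contrast that was not tested.

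Setting the overall level aside, the share of a library's alpha counts that fell in each region was compared. These shares, and their rank order, were examined after the values were seen. In 5 of the 17 regions both KO shares were above both WT shares, in 6 both were below, and in 6 they overlapped. In gamma, 3 of the 28 regions had both KO shares above, 8 both below and 17 overlapping shares. These gamma counts include the 2 regions that were not tested, and the one from 37890910 to 37891169 is among those below. For tested regions within autosomal windows of 0.2 Mb with at least 15 of them, the shares of 33.5% of 140739 regions did not overlap. The region from 37304246 to 37304721 took 5.36% and 6.02% of alpha counts in KO and 2.04% and 2.99% in WT. The region from 37311938 to 37312247 took 4.04% and 2.48% in KO, against 1.504% and 1.66% in WT, and the one from 37338549 to 37339013 took 4.99% and 6.20% against 2.48% and 1.22%. These 3 regions had a larger part of the alpha signal in both KO libraries, although KO2 had the lowest alpha sum. For the region starting at 37311938, the KO2 share rested on 14 reads, beside 17 from WT1, 15 from WT2 and 55 from KO1. There KO2 had 0.908 CPM and WT1 0.906 CPM, so the KO2 share was larger without a clearly higher level. Whether that KO2 share exceeds counting error was not tested. In the opposite direction, the region from 37310044 to 37310470 took 6.39% and 5.66% in KO, against 9.20% and 7.08% in WT, and the one from 37308513 to 37309339 took 4.41% and 3.89% against 6.20% and 5.42%.

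**Figure D4:**
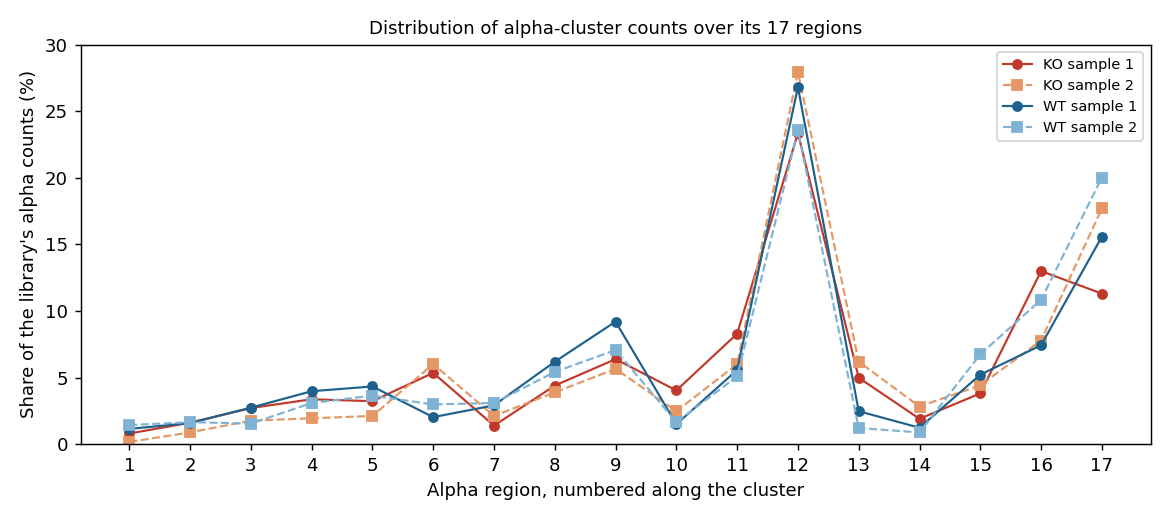
Share of each library's alpha-cluster counts (%) in each of the 17 alpha regions, numbered along the cluster, with circles and full lines for sample 1 and squares and broken lines for sample 2. All 4 libraries peak at region 12 (23.4% to 27.96%), while both KO lines lie above both WT lines at regions 6, 10, 11, 13 and 14.

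The rank order of the 17 alpha regions followed the genotype. Spearman's rho across these regions was 0.915 between the KO libraries and 0.937 between the WT libraries, and it ranged from 0.605 to 0.748 between a KO and a WT library. Limited to the 14 regions that averaged at least 20 counts, it was 0.923 and 0.946 within genotypes and at most 0.642 between them. Per kilobase of width the values fell to 0.728 and 0.846 within and at most 0.453 between. The regions share the same libraries and differ in width and depth, and no p is given. Across the 26 tested gamma regions there was no such order, with 0.901 for the KO pair, 0.905 for the WT pair and 0.865 to 0.940 between genotypes. Of 4991 autosomal windows of 0.2 Mb with at least 15 tested regions, 3.11% had both same-genotype correlations above all 4 between genotypes, and in 4 of the windows, alpha itself included, the distance between these correlations was at least that of the alpha cluster. The alpha cluster was not picked at random from these windows.

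The log2 fold changes of the gamma regions ran from -1.02 to 0.92, with a median of 0.15, against a median of -0.40 in alpha. The gamma region of highest level per kilobase, from 37996310 to 37996999, had 15.99, 11.99, 11.6 and 11.5 CPM in KO1, KO2, WT1 and WT2. Both KO libraries lay above the WT libraries, KO2 by little, with a log2 fold change of 0.28 ± 0.29 (SE) that was 0.059 without KO1 and 0.47 without KO2. Its mean WT level of 16.7 CPM per kb was the highest of the window. The next by this measure, from 37893750 to 37894057, lay in the sparse part of the cluster and had 2.34, 2.07, 2.77 and 2.32 CPM in the same order, with overlap between genotypes.

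The widest region of the window, 1813 bp from 37978476 to 37980288, had 9.54, 15.5, 9.16 and 10.6 CPM in KO1, KO2, WT1 and WT2. KO2 alone stood high, and the log2 fold change was 0.34 ± 0.32 (SE). The region from 37986747 to 37987096 showed the largest positive gamma value without overlap, with 2.38 and 2.92 CPM in KO and 1.12 and 1.68 CPM in WT, and a log2 value of KO over WT of 0.92 ± 0.57 (SE). Lowest was the region from 37927756 to 37927974, with 0.561 and 0.648 CPM in KO and 1.12 and 1.33 CPM in WT, and a log2 value of KO over WT of -1.02 ± 0.80 (SE). Its counts were 12 and 10 against 21 and 23, so that both genotypes were thinly covered, and it passed the filter on low counts through the WT libraries alone. Another region higher in both KO libraries, singled out after its values were seen, lay from 38002187 to 38003710. It had 8.28 and 11.9 CPM in KO and 6.23 and 6.84 CPM in WT, with a log2 fold change of 0.62 ± 0.33 (SE) that did not pass (adjusted p = 1.00, edgeR).

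Beyond the gamma bound the signal went on without a break. The last gamma region, from 38008954 to 38010043, had 5.14, 9.98, 7.25 and 6.26 CPM in KO1, KO2, WT1 and WT2. The first region outside, from 38010553 to 38010967, had 3.60, 3.82, 2.82 and 2.03 CPM in the same order, with both KO libraries above both WT libraries. Of the 5 regions after gamma, the one from 38020284 to 38021038 had the highest level per kilobase, with 6.73, 4.21, 6.34 and 6.50 CPM, and there KO2 alone was low. The other 4 had both KO libraries above both WT libraries, with log2 fold changes from 0.23 to 0.61 and standard errors from 0.42 to 0.68, none past the threshold. The region between alpha and beta, from 37395098 to 37395298, had counts of 3, 1, 0 and 5 and was not tested. The other regions that were not tested were both in gamma, from 37890910 to 37891169 with counts of 6, 7, 8 and 15, and from 37935345 to 37935690 with counts of 6, 0, 2 and 4, near or under the floor of 3 counts in part of the libraries.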

How the data were processed

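Sequences carrying 5hmC were tagged with biotin, purified and sequenced in 2 KO and 2 WT libraries. The submitters' processing notes name Bowtie2 2.2.6 and build mm9. The authors deposited raw read counts (whole numbers) for 1 shared list of regions, and how the regions were defined, the counting program and the treatment of duplicate reads are not given in the sources used here. The 2 input libraries were not analysed here. Groups and sample numbers were taken from the sample titles.

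All regions were filtered with filterByExpr (minimum count of 10, minimum total of 15), scaled by TMM and tested with glmQLFTest (edgeR 4.0.16, R 4.3.3). P-values were adjusted by Benjamini-Hochberg across every tested region, with 0.05 as the threshold. Counts summed over the 3 clusters were tested in the same way together with windows of 0.2 Mb, with the library sizes and TMM factors of the region table. A standard error is the size of the log2 fold change divided by the square root of the F statistic. Ratios within libraries were compared by exact permutation (SciPy 1.17.1). Alternatives were DESeq2 1.42.0, total-count scaling, other filters, a replicate block, autosomes only, other window sizes and bounds, and leaving out each library. Figures were drawn with matplotlib 3.10.9.

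In simulated counts with the measured spread, 35.5% of 200 regions changed 4-fold and 98% of those changed 16-fold were called among 176957 regions, with 7 and 15 false calls. For 11145 windows it was 82.5% and 99.5%. With nothing changed, 4.73% of simulated regions and 4.67% of simulated windows had a raw p under 0.05 by edgeR. In the data these shares were 2.81% and 0.897%. The test was thus stricter on the data than on the simulated counts, and the rates of detection may be too high for the data. Counts cover counting error and not the number of distinct molecules.

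The regions, cluster bounds and lists were chosen with earlier results of these data known. The regions named by rule were, in each cluster, the 2 of highest mean WT CPM per kb, the widest, the largest change in each direction without overlap of the genotypes, and any past the threshold, plus the 1 of highest level outside the clusters. Other regions named in the text, such as those beside the gamma bound, were not chosen by this rule. The examples of shares were picked after the values were seen. Single protocadherin genes outside the clusters and regulators of their promoters were listed for description and are not analysed here, because no annotation of mm9 was used.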

Additional observations from a re-analysis of the deposited data

How the results depend on the processing

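The count of 0 protocadherin regions past adjusted p 0.05 (2 at unadjusted p under 0.05) stayed at 0 with DESeq2, total-count scaling, no filter, a mean count of at least 20, autosomes only, the threshold of 0.01 and the replicate block. Leaving out a library gave 0 to 2 regions. The 2 came without KO1 and were the beta region (log2 fold change -2.79, adjusted p = 0.0186, edgeR) and the gamma region from 38002187 to 38003710 (0.86, adjusted p = 0.0292, edgeR). That fit rests on the spread of the WT pair, assumes that the lone KO library varies alike, and called 7.51% of all tested regions. On leaving out each library, the cluster log2 fold change ranged from -0.62 to 0.18 for alpha, from -2.90 to -2.43 for beta and from 0.048 to 0.29 for gamma. Without KO1 all 3 clusters passed (adjusted p = 0.00224, 0.0171 and 0.0409, edgeR), as did 24.2% of all windows, and without KO2 alpha reversed to 0.18. The KO minus WT difference of log2 alpha over gamma ranged from -0.90 to 0.13, and it turned positive without KO2.

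With total counts outside the 25 top regions as the scale, the mean for alpha was 67.8 CPM in KO and 76.4 CPM in WT. For beta it was 0.468 in KO and 3.11 in WT, and for gamma 156 in KO and 141 in WT. Bounds widened by 10 kb, chosen after the data were seen, gave 0.452 CPM in KO and 2.44 CPM in WT for beta, with 2 regions. For gamma, with 30 regions, they gave 124 CPM in KO and 110 CPM in WT. The count of 22 regions without overlap, of 49, fell to 15 with total counts and stayed at 22 with DESeq2 size factors. Among the 43 regions averaging 20 counts or more, 19 had no overlap. The share over all tested regions, 30.9%, was taken with TMM scaling only. How far 22 of 49 stands above the other regions thus depends on the scaling and was not tested. Among the named regions, leaving out a library moved the log2 fold change across 0 in the widest alpha region (-0.47 to 0.060, above 0 without KO2 and, at 0.033, without WT1), the widest gamma region (-0.051 to 0.65, below 0 without KO2) and the region from 38020284 to 38021038 (-0.60 to 0.069, above 0 without KO2). What causes these shifts was not tested.

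Deviations from the group means correlated between same-numbered libraries (0.164 across all tested regions and 0.302 across the 49), but with 2 pairs and no label for a batch they share only a number. With the replicate block 0 of the 49 regions passed, against 0.0446% of all tested regions, and the cluster log2 fold changes were -0.21 for alpha, -2.66 for beta (adjusted p = 0.508, edgeR) and 0.16 for gamma. The number of libraries limits precision, and the beta region rests on 95 counts in all.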
